A study of Sus scrofa with 6 samples.

Results

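The microRNAs (miRNAs) miR-128 and miR-139-5p were lower in the left atrium (LA) of every paced pig than in that of every sham pig after background correction and quantile normalization, with a mean paced level of 86.3% and 90.2% of the sham level. The groups of miR-128 overlapped in 1 of 9 other ways of processing, and those of miR-139-5p did not overlap in 4 of the 9. These small changes were measured on miRNA microarrays, together with the opposite strand of the same precursor, miR-139-3p, which did not rise above the array background. The 3 probes were 3 of the 322 pig miRNA probes on the array. They were taken by name, as the probe ssc-miR-128 and every probe whose name begins with ssc-miR-139. The pair miR-128 and miR-139-5p had first been chosen by their values on these same arrays, because they stood clear of the background and were lower on every paced array. Their difference between the groups is therefore given as a description without a test, and only miR-139-3p, which no measured value had selected, was tested.

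LA RNA came from 3 sham and 3 paced animals, each hybridized to an array of its own. The paced animals carry the abbreviation PAF in the labels. Under anaesthesia they received bursts of rapid right atrial pacing through a catheter after the beta blocker esmolol, and the LA was taken about a day later, whereas the sham animals were not paced. The labels call the animals neonatal piglets, while the methods describe Large white pigs some months old. Whole LA tissue was used, so a change in the share of a cell type and a change in the miRNA content of its cells cannot be told apart.

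A mature miRNA is a short RNA that guides an Argonaute protein to messenger RNAs, mostly through its seed, which is bases 2 to 8 counted from the 5′ end. Messenger RNAs that pair with the seed are translated less and decay faster. miR-128 is best known from neurons, where it is abundant, and is also made in heart muscle cells. In pigs it has a pair of genes, which in the RefSeq annotation (Sscrofa11.1) lie within R3HDM1 and within ARPP21, and a probe for the mature strand measures their products together. The single gene of miR-139 lies within PDE2A, which encodes a phosphodiesterase that degrades cAMP and cGMP. Its precursor gives miR-139-5p, usually the more abundant strand, and miR-139-3p.

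The mature sequences below are those for which the array was designed. They are shown because a probe reads these letters and because miR-128 and miR-139-5p share part of their seeds. Capitals mark the seed.
miR-128: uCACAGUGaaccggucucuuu
miR-139-5p: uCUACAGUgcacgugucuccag
miR-139-3p: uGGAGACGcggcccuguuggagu
miR-27a: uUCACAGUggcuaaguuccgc
miR-27b-3p: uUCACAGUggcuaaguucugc

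No other probe of the array had the same seed as miR-128, miR-139-5p or miR-139-3p. The 6 letters ACAGUG stood at base 3 of miR-128 and at base 4 of miR-139-5p, so that the core common to them was offset by 1 base. Within bases 1 to 9 this core was held by 4 of the 322 mature sequences (1.24%), and the other members of the 4 were miR-27a and miR-27b-3p. Both miR-27 sequences hold the whole 7-base seed of miR-128, starting at base 3. The strands miR-139-5p and miR-139-3p, which face each other in the precursor, can pair over the 7 letters GUCUCCA, bases 15 to 21 of the 5p strand against bases 1 to 7 of the 3p strand. The 3 sequences were 21, 22 and 23 bases long, and their GC content was 47.6%, 54.5% and 65.2%.

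On the scanner's linear scale, before any correction, the spots of miR-128 were bright on all arrays. The median signal of its 9 repeat spots was 1797, 1059 and 1023 in sham replicates 1, 2 and 3, and 950, 1169 and 1010 in paced replicates 1, 2 and 3. The groups overlapped in these uncorrected values, since paced replicate 2 lay above sham replicates 2 and 3. The background was not the same in the groups. The median of the 786 empty spots was 214, 64.7 and 117 on the sham arrays and 399, 242.5 and 261 on the paced arrays, so that every paced array had a higher background than every sham array. The part of this background in the normalized differences was not tested beyond the alternative corrections given further on. With the empty-spot median subtracted, the signal of miR-128 was 1583, 995 and 906 in sham and 551, 926 and 749 in paced animals. The net signal was lower in the paced animal in 8 of the 9 sham and paced pairs, the exception being paced replicate 2 against sham replicate 3. miR-128 lay between 10.97 and 119 SD of the empty spots above their median.

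The signal of miR-139-5p was weaker relative to the same background. Its uncorrected signal was 916, 487 and 507 in sham and 592, 715 and 647 in paced animals, and the paced mean was 102% of the sham mean. The net signal over the empty spots was 702, 423 and 389 in sham and 193, 473 and 385 in paced animals, lower in the paced animal in 7 of 9 pairs. The uncorrected paced mean was therefore not lower, while the net paced mean was 69.4% of the sham mean. On paced replicate 1 its spots were 3.84 SD above the empty spots, close to the limit of 3 SD above which a probe was taken as detected here. The signal of miR-139-3p was 210, 77.2 and 124 in sham and 365, 256 and 266 in paced animals. These values followed the empty spots of each array, so that miR-139-3p was detected on none of them. When each spot was set against its 15 nearest empty neighbours, miR-139-3p was detected on 1 sham array.

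**Figure D1:**
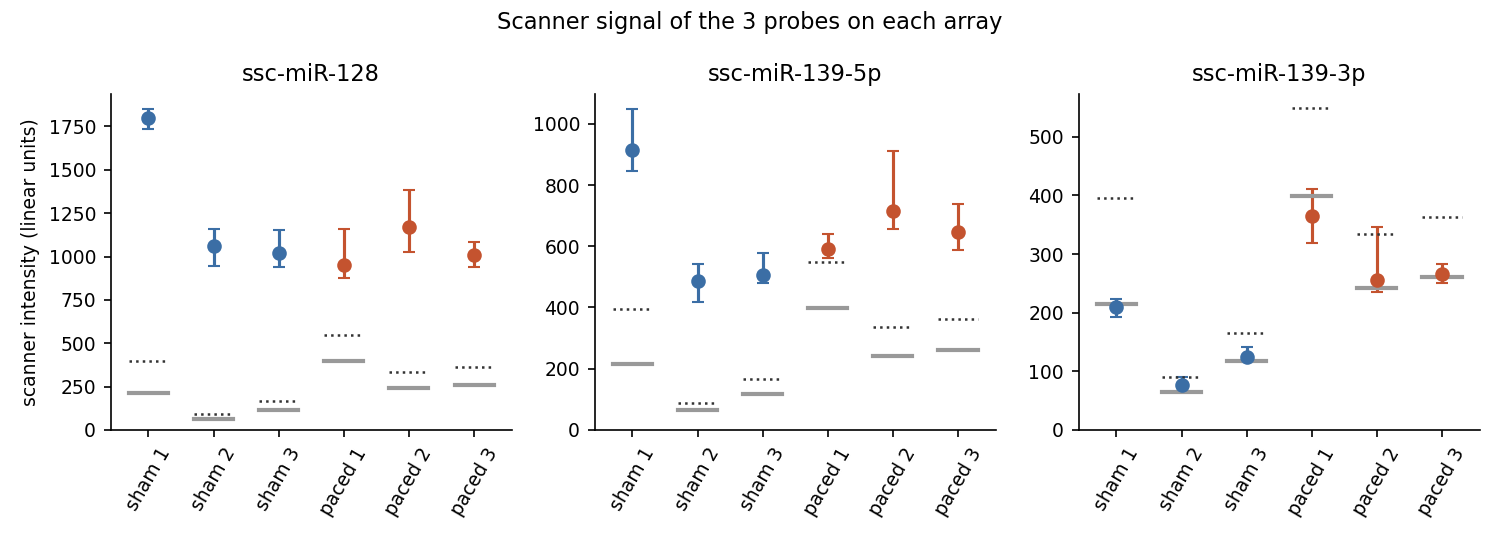
Uncorrected scanner signal (vertical axis, linear intensity) of miR-128, miR-139-5p and miR-139-3p on each of the 6 arrays (horizontal axis), with the level of the empty spots of the same array. miR-128 and miR-139-5p stand above the empty spots on every array, miR-139-3p lies at their level, and the empty spots of the paced arrays, with medians of 242.5 to 399, are brighter than those of the sham arrays, at 64.7 to 214.

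After normexp background correction and quantile normalization the groups separated. The log2 intensity of miR-128 was 10.03, 10.22 and 10.13 in sham and 10.002, 9.84 and 9.90 in paced animals. All 3 paced values lay below the lowest sham value. Sham animals averaged 10.13 ± 0.09 and paced animals 9.91 ± 0.08 (SD, n = 3 each), a difference of -0.21. The pooled SD within the groups was 0.087. The selection on groups that do not overlap favours a difference above this SD, so the comparison supports nothing. The lowest sham and the highest paced value, both of replicate 1, were only 0.03 apart. The standard error of that gap from the repeat spots was 0.052, so the spots did not resolve sham replicate 1 from paced replicate 1.

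The log2 intensity of miR-139-5p was 9.23, 9.24 and 9.08 in sham and 9.03, 9.01 and 9.07 in paced animals. Again no paced animal reached the lowest sham animal. Sham animals averaged 9.18 ± 0.09 and paced animals 9.03 ± 0.03 (SD, n = 3 each), a difference of -0.15, and the pooled SD was 0.067. Here the closest animals were the sham and the paced replicate 3, which were 0.01 apart with a standard error of 0.058 from the repeat spots.

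Sham replicate 2 had the highest level and paced replicate 2 the lowest for both miRNAs. Between these ends the order was not shared: in miR-128 the animals that nearly met were the replicates 1, in miR-139-5p the replicates 3. The median difference of all 322 probes was 0.0031, and that of the 104 probes detected on all arrays was -0.029. The differences of miR-128 and miR-139-5p lay below both medians, which their choice for lower paced values favours. Quantile normalization gives every array the same distribution of spot values, which keeps the median difference of all probes small. Without normalization that median was 0.27.

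**Figure D2:**
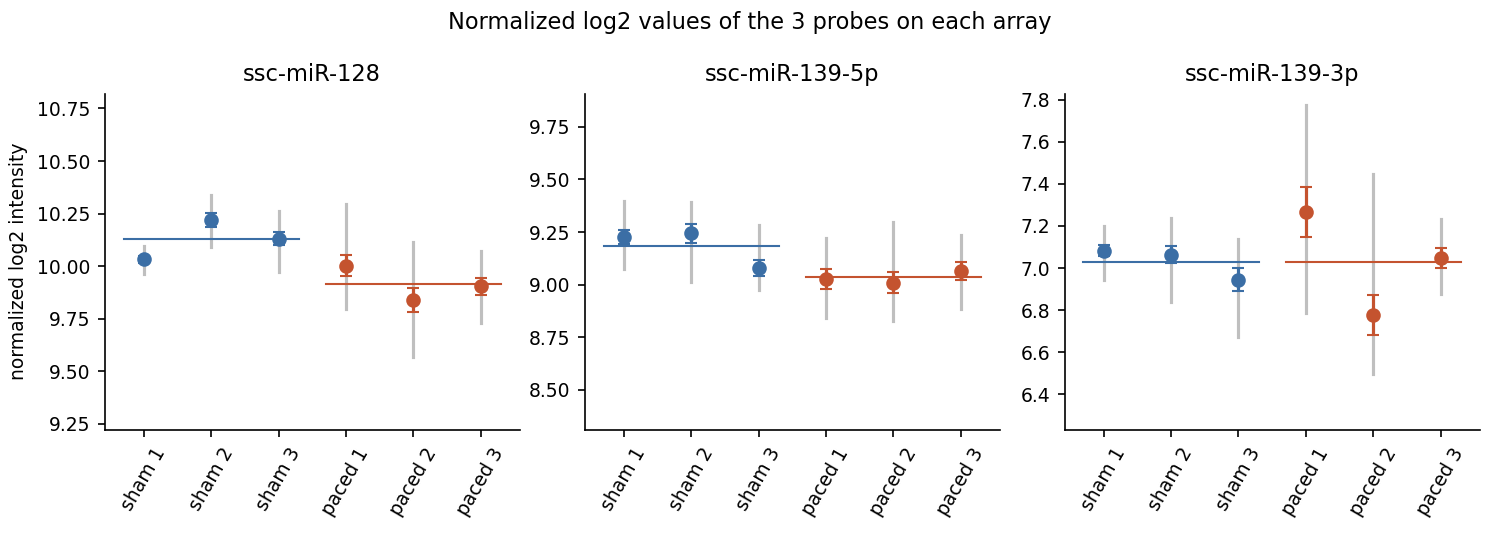
Normalized log2 intensity (vertical axis) of the 9 repeat spots of each probe on each of the 6 arrays (horizontal axis), with the mean of each array. The array means of miR-128 span 10.03 to 10.22 in sham and 9.84 to 10.002 in paced animals, those of miR-139-5p span 9.08 to 9.24 and 9.01 to 9.07, and those of miR-139-3p overlap.

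The separation on which the pair was selected was narrow, and other probes showed it too. Whether their share exceeds that expected without any change was not tested. Lower values on every paced array were found for 33 of the 322 probes (10.2%) and for 5 of the 104 detected probes (4.81%). Of these 5, miR-143-3p, a smooth muscle miRNA, had the widest gap between the lowest sham and the highest paced value, at 0.08. It was followed by miR-128 and miR-139-5p, and then by the strands of one precursor, miR-22-3p and miR-22-5p, each with a gap of 0.0048. Just outside stood miR-125b, with a gap of -0.0099, and miR-133b, a heart and skeletal muscle miRNA, with a gap of -0.014, a negative gap being an overlap. The mean differences of miR-125b and miR-133b were only -0.021 and -0.0041, so their place near the edge does not mean a lower paced level. In limma, 34 of the 322 probes (10.6%) passed an unadjusted p threshold of 0.05, 11 of them higher and 23 lower in paced animals. The same split was 22 higher and 16 lower with the processed values of the authors, 176 and 5 after scaling each array to the median of the 104 probes, and 15 and 0 without normalization. No probe (0%) passed after Benjamini-Hochberg adjustment, where the lowest adjusted p in limma was 0.134. By the methods' t-test 39 probes passed unadjusted and 0 adjusted. With 3 animals against 3 an exact permutation test of 1 probe cannot give a p below 0.1. A full separation of the groups, counted in either direction, is the outcome that gives this p. Lower values on every paced array are the downward direction of it.

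**Figure D3:**
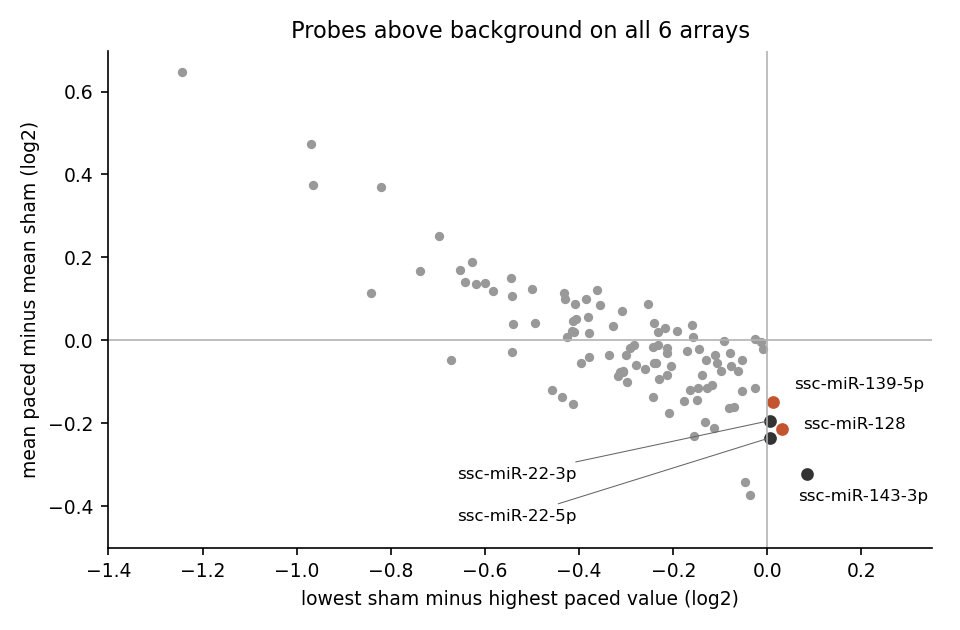
Each point is 1 of the 104 probes detected on all 6 arrays, plotted by the gap between its lowest sham and its highest paced value (horizontal axis, log2) and by its mean difference between paced and sham animals (vertical axis, log2). The 5 named probes to the right of 0 are those lower on every paced array, and miR-128 and miR-139-5p lie at gaps of 0.03 and 0.01.

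The repeat spots of both miRNAs gave lower means in paced animals wherever they stood on the array, but the size differed between positions. At each of the 9 positions the mean of miR-128 was lower in paced animals, by -0.31 to -0.11, and at 5 positions the groups did not overlap. These 5 stood in rows 78 and 118. In row 38 the groups overlapped at every spot, with gaps of -0.20, -0.08 and -0.05. At each of the 9 positions the mean of miR-139-5p was also lower, by -0.24 to -0.06, and at 2 positions the groups did not overlap. Its differences were -0.24, -0.20 and -0.23 in column 3 and -0.09, -0.09 and -0.06 in column 13. Those of column 23 lay between. Whether the position on the array mattered was not tested. The 9 spots of an array share 1 RNA and are not replicates of a condition. The value of an array is the mean of these same spots, so the positions only restate the values on which the pair was chosen. The coefficient of variation among the spots of an array was 2.30% to 9.83% for miR-128 and 4.83% to 11.2% for miR-139-5p.

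Of the 104 detected probes, 10.6% had a smaller pooled within-group SD than miR-128 and 4.81% a smaller one than miR-139-5p. A choice of probes whose groups do not overlap favours a small spread, so these shares only describe the values that chose the pair.

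Other processing kept miR-128 and miR-139-5p lower on average, but not always apart. Over 9 other settings the difference of miR-128 ranged from -0.45 to -0.19, and the groups overlapped in 1 of them, without normalization. The difference of miR-139-5p ranged from -0.22 to -0.05 over the same settings, and the groups did not overlap in 4 of 9. They overlapped with cyclic loess, with scaling to the median of the 104 probes, without normalization, with the median of the repeat spots, and in the processed values of the authors. Without each animal in turn the difference was between -0.26 and -0.16 for miR-128 and between -0.20 and -0.12 for miR-139-5p. Because the pair was chosen for lower values on every paced array, differences below 0 were favoured in all these runs.

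In the processed intensities that the authors deposited, which are on a linear scale, miR-128 had 1020, 1074 and 988 in sham and 965, 816 and 783 in paced animals. Every paced value was below every sham value, with means of 1027 ± 43.3 and 855 ± 97.3 (SD, n = 3 each). For miR-139-5p these values were 456, 488 and 428 in sham and 384, 443 and 434 in paced animals. Paced replicates 2 and 3 lay above sham replicate 3, so in these values miR-139-5p was not lower on every paced array. The means were 457 ± 29.8 and 420 ± 31.6, and their difference was close to the SD of either group.

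**Figure D4:**
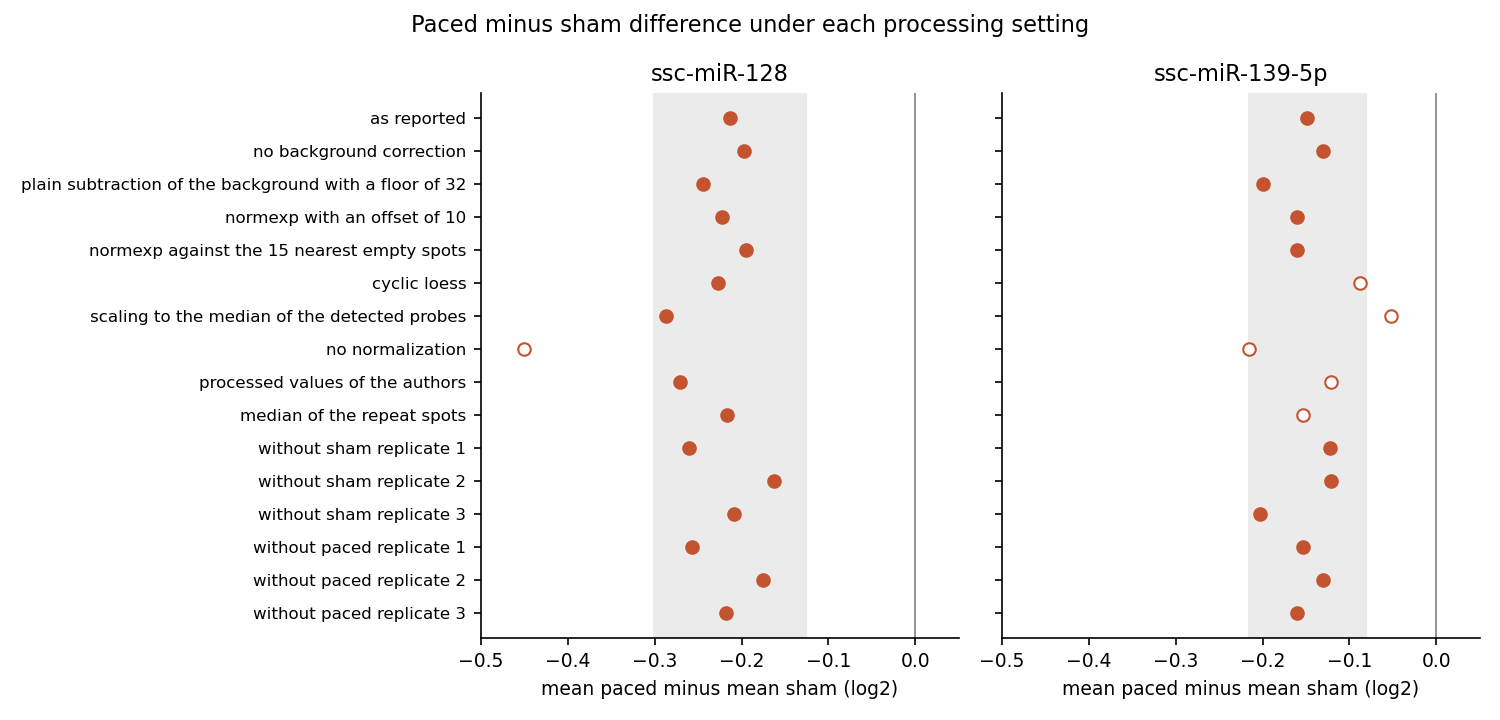
Mean difference between paced and sham animals (log2) of miR-128 and miR-139-5p in the main processing, under each of 9 other settings and with each animal left out. All differences are below 0, which the choice of the pair favours. They run from -0.45 to -0.16 for miR-128 and from -0.22 to -0.05 for miR-139-5p.

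The other strand of the miR-139 precursor did not pass the test. The log2 intensity of miR-139-3p was 7.08, 7.06 and 6.94 in sham and 7.27, 6.78 and 7.05 in paced animals. The paced values spanned the whole sham range, with paced replicate 1 the highest and paced replicate 2 the lowest of the 6. Sham animals averaged 7.03 ± 0.08 and paced animals 7.03 ± 0.25 (SD, n = 3 each). The 95% interval of the difference ran from -0.31 to 0.31 (limma, adjusted p = 0.999), which includes a change of the size seen in miR-139-5p. Because the probe was detected in neither group, no fold is given, and whether the strands of the precursor changed alike was not detectable here. The direction of its difference changed with the background correction and with the animal left out. With arrays scaled by the median of the 104 probes its difference became 0.60 (limma, adjusted p = 0.00491), in a setting that shifted the median of all 322 probes by 0.44.

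miR-27a and miR-27b-3p, which hold the seed of miR-128 shifted by 1 base, did not pass the test. The log2 intensity of miR-27a was 12.37, 12.41 and 12.18 in sham and 12.12, 12.81 and 12.59 in paced animals, and the groups overlapped. Its difference was 0.19 with an interval of -0.23 to 0.61 (limma, adjusted p = 0.739). For miR-27b-3p the values were 13.49, 13.53 and 13.47 in sham and 13.61, 13.37 and 13.26 in paced animals. Paced replicate 1 lay above all sham animals and the other paced animals below them, and the difference was -0.08 with an interval of -0.32 to 0.15 (limma, adjusted p = 0.792). The opposite strand, miR-27b-5p, had 7.26, 7.36 and 7.37 in sham and 7.01, 7.09 and 7.08 in paced animals without overlap (limma, adjusted p = 0.168). It was detected on 2 sham arrays and on no paced array, so its paced level is only bounded and no fold is given.

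A shorter stretch of the miR-139-5p seed, the letters UACAGU, opens miR-101, miR-199b-3p and miR-144. The difference was -0.03 for miR-101, with an interval of -0.34 to 0.27 (limma, adjusted p = 0.922). It was 0.04 for miR-199b-3p, with an interval of -0.16 to 0.24 (limma, adjusted p = 0.884). miR-144, an erythroid miRNA, was detected on no array. The groups overlapped in miR-101 and in miR-199b-3p.

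**Figure D5:**
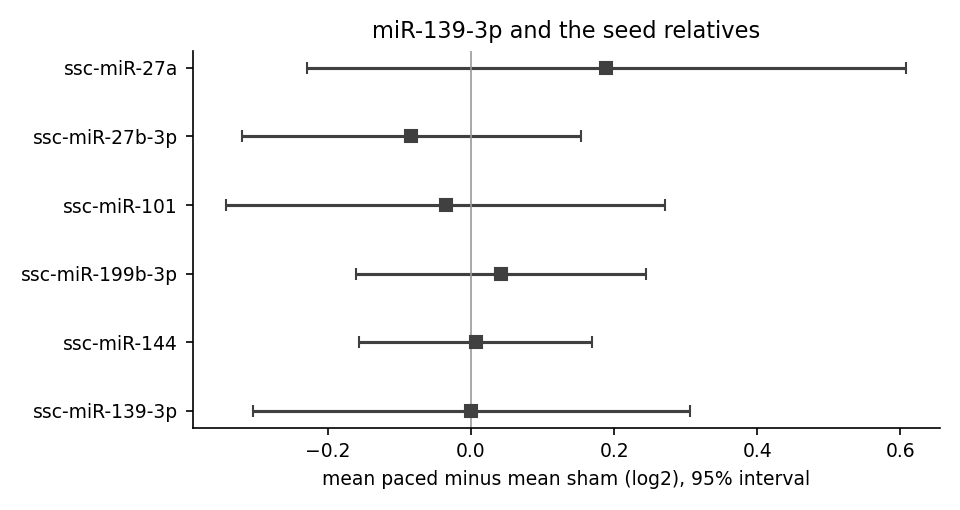
Mean difference between paced and sham animals (log2, horizontal axis) of miR-139-3p and of 5 probes that share a stretch of the miR-128 or miR-139-5p seed, with 95% intervals from limma as bars. All 6 intervals include 0, from -0.23 to 0.61 for miR-27a and from -0.32 to 0.15 for miR-27b-3p.

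The probes with values most like those of miR-128 over the 6 arrays were miR-99b, miR-145-5p and miR-92a. Likeness was the root mean square distance between log2 values centred on the mean of each probe, over the 103 other detected probes. The distances were 0.082, 0.088 and 0.091, against 0.128 for a probe that did not vary at all. Next came miR-139-5p, at 0.092. For miR-139-5p the closest probes were miR-15b, miR-30c-5p and miR-125b, at 0.057, 0.068 and 0.080, against 0.092 for a flat probe. miR-128 was the 8th closest, also at 0.092 and thus hardly closer than the flat probe. These distances describe the same 6 arrays on which the pair was chosen.

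Markers of the cell types of the atrial wall were read on the same arrays. Of the 7 heart muscle probes, 5 were detected on all arrays, and none passed an unadjusted threshold of 0.05 in limma. Their median difference, 0.0041, was that of miR-133a-3p, while single probes ran from -0.34 (miR-133a-5p) to 0.37 (miR-1). Their summed linear level was 60404.5 to 62926.1 in sham and 58097 to 68904.9 in paced animals. Of all probes, miR-133a-3p and miR-133b were the brightest, with differences of 0.0041 and -0.0041. Quantile normalization gives the highest ranks the same values on every array, so it nearly fixed both probes. The median and the sum, to which they add much, therefore say little about heart muscle content. The 9 probes of the neural list, which bear on miR-128 because of its abundance in neurons, were detected on no array. The summed linear level of the smooth muscle and fibroblast list was 44194 to 45792 in sham and 39627 to 45238 in paced animals, and 1 of its 9 probes, miR-143-3p, was lower at the unadjusted threshold. The summed level of the 6 blood probes was 13325 to 18017 in sham and 9158 to 13474 in paced animals, with paced replicate 2 the lowest. Of these 6, 3 were detected on no array and miR-486 was lower at the unadjusted threshold. Of the 5 endothelial probes, 2 were detected on no array, and 1 of these, miR-126-5p, was the only one past that threshold, with a higher value in paced animals that has no usable level behind it. No marker passed after adjustment. The part of these lists in the lower miR-128 and miR-139-5p was not tested.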

How the data were processed

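LA miRNA was measured in 3 sham and 3 paced animals, 1 array each, grouped by the sample titles. The authors deposited scanner intensities (median signal of each spot, linear, not background-corrected) and processed intensities (1 value per probe and array, linear, with the normalization not given in the sources used here). Each array holds 3968 spots, of which 2898 are the 9 repeat spots of 322 pig miRNA probes and 786 are empty. Scanner values were corrected with normexp (offset 50) in limma 3.58.1 (R 4.3.3), control spots were left out, log2 values were quantile-normalized, and repeat spots were averaged. Groups were compared with lmFit and eBayes over all 322 probes, with Benjamini-Hochberg adjustment. A probe was called detected when the median of its spots exceeded the empty median by 3 SD. The log2 scale includes the offset, which makes differences of dim probes smaller. Precision is limited by 3 arrays per group.

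The miRNAs and lists were chosen with earlier results of these data known. Named probes are all those of miR-128 and miR-139, the 3 most alike for each of the pair, those at the edge of the selection, seed relatives, and others where a small count needs names. Alternatives changed the background correction, the normalization, the summary of spots, the values used, the animals, the model or the filter. The methods' t-test on the processed values without a logarithm was added after the data were seen. The steps were tested on simulated data. No slide or scan batch is named. Surrounding genes come from a RefSeq table of Sscrofa11.1, whose coordinates are not given because the files name no build. Sequences are those of the scanner files. Python 3.11.15 with matplotlib 3.10.9 drew the figures.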

Additional observations from a re-analysis of the deposited data

How the results depend on the processing

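The difference of miR-128 was -0.45 without normalization, and that of miR-139-5p was -0.052 after scaling each array to the median of the detected probes. Both were below 0 under all settings run, which the choice of the pair favours. miR-139-3p changed sign with an offset of 10 (-0.016), with the nearest empty spots as background (-0.053), with the median of the repeat spots (-0.023) and with the processed values of the authors (-0.38), and without 1 animal it ranged from -0.11 to 0.13. After scaling it was 0.60 (limma, adjusted p = 0.00491), where the median of all 322 probes had shifted by 0.44. Without normalization that median shifted by 0.27. The cause of these changes was not tested.

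The number of probes past the unadjusted threshold, 34 in the main processing, was 20 with plain subtraction, 181 after scaling (171 adjusted), 15 without normalization and 5 when dim probes were left out, where fewer probes were tested. Without 1 animal it ranged from 19 to 67, with 19 without sham replicate 2, 21 without paced replicate 3 and 67 without paced replicate 1 (9 adjusted). Without paced replicate 2, 1 probe passed adjusted. The number lower on every paced array, 33, was 16, 10 and 5 with plain subtraction, scaling and no normalization. It ranged from 39 to 70 without 1 animal, where fewer animals must be separated, with 51 without sham replicate 3 and 70 without paced replicate 1. By the methods' t-test on the processed values without a logarithm, added after the data were seen, 29 probes passed the unadjusted threshold.

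Whether the replicate numbers mark a pairing could not be decided from these few correlations. The deviations of same-numbered animals correlated at 0.17, -0.04 and 0.13 over all probes, against -0.23 to 0.19 for differently numbered animals. Over the probes detected on all arrays the values were 0.17, -0.01 and 0.21, against -0.24 to 0.09. With the replicate block the difference of miR-139-3p remained 0.000284 and 33 probes passed the unadjusted threshold. Probes at background, such as miR-139-3p, have no usable level, and 3 arrays per group limit every comparison.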
